A study of Mus musculus with 2 samples.

Results

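SR splicing factors are a family of RNA-binding proteins named for a region rich in arginine and serine. The members described here were 10 genes taken by symbol (Srsf1, Srsf2, Srsf3, Srsf4, Srsf5, Srsf6, Srsf7, Srsf9, Srsf10 and Srsf11) among 32285 listed genes. All 10 symbols were found once each, and all 10 passed the minimum of 10 CPM (UMI counts per 1000000 UMIs) in mean level. A UMI, or unique molecular identifier, marks a captured RNA molecule.

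The cells were E14 mouse embryonic stem cells of 129/Ola background, kept in serum with leukaemia inhibitory factor. The control library came from cells given a control siRNA with Lipofectamine2000, and the sonKD library from cells given siRNA against Son in the same way. Both were collected 24 hours after transfection, frozen, thawed, sorted with 7-AAD and barcoded with 10x Genomics 3' chemistry. Each group held 1 library, so no test was possible, no difference here has a replicate check, and a library effect and a knockdown effect cannot be told apart.

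SR proteins bind exonic sequences through RNA recognition motifs and help the spliceosome to recognise splice sites. Most are stored in nuclear speckles, whose scaffold includes the SON protein, and kinases of the CLK and SRPK families set their release and localisation. Many SR genes limit their own output through exons that carry an early stop codon, whose inclusion sends the transcript to nonsense-mediated decay.

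Cells were barcodes with 2500 or more UMIs, 1000 or more genes and no more than 10% mitochondrial UMIs, which left 4978 in control and 2731 in sonKD. They held 40902904 and 32032551 UMIs, with a median of 7737.5 and 11612 per cell, and 2 barcode sequences occurred among the cells of both libraries. Of 8 embryonic stem cell markers, all 8 were at 10 CPM or more in both libraries, with a sum of 8164 CPM in control and 8922 in sonKD. None of the 5 fibroblast, 5 primitive endoderm, 4 trophectoderm and 3 neural markers reached 10 CPM. Their summed levels lay between 3.15 and 7.65 CPM, and Col3a1, Lum, Elf5 and Neurog2 were at 0. Son itself stood at 169 CPM in control against 106 CPM in sonKD, or 62.7% of control (95% interval 60.2 to 65.4), so most Son RNA was still there. Intervals throughout are at 95% and cover counting error only.

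Gene structures were read from GENCODE M21 on GRCm38, the build that the submitters' processing notes call mm10. The genes were compact, from 3194 bases for Srsf2 to 28090 bases for Srsf4, and had 3 to 13 exons in their main coding transcript. A transcript marked for nonsense-mediated decay was annotated for 9 of the 10, all but Srsf10. A retained intron was annotated for 8 of the 10, all but Srsf9 and Srsf10, and Srsf11 had 11 such transcripts among 19. Within the last 500 bases of their main transcripts, none of the 10 shared a 31-base word with another annotated gene. Genes on the opposite strand overlapped Srsf1 (Gm11508), Srsf2 (Mettl23 and Mfsd11) and Srsf4 (Gm12992). Genes on the same strand overlapped Srsf4 (A930004J17Rik) and Srsf11 (Gm43362). How the counting used strand is not given in the sources used here, so counts of these 4 genes may include reads of the partner.

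Upstream sequence is shown for Srsf6, Srsf9 and Srsf3, the 3 members with the lowest sonKD level relative to control. The sequences are from RefSeq on GRCm38.p6, on the gene's strand, and end before the first annotated start. Each lies on the plus strand, Srsf6 at chr2:162931258-162931507, Srsf9 at chr5:115326927-115327176 and Srsf3 at chr17:29032410-29032627. Capitals mark matches, on either strand, to 6 short motifs.
Srsf6: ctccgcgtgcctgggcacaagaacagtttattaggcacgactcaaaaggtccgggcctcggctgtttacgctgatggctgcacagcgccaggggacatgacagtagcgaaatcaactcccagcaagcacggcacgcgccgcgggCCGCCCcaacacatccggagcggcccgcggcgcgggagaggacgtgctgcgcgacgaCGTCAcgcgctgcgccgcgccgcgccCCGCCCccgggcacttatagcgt
Srsf9: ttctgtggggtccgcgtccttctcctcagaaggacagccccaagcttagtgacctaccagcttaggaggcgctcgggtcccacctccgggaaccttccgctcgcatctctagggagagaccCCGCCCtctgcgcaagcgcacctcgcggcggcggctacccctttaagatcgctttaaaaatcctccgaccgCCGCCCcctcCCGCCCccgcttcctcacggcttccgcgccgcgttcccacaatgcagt
Srsf3: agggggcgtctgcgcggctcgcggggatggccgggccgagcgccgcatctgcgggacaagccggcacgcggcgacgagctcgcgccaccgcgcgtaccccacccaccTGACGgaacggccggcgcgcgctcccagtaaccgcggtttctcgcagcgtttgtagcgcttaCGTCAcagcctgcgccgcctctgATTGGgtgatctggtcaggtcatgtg
The GC box GGGCGG was found in the RefSeq window of 9 of the 10 members, all but Srsf3, against 32.7% of 32817 RefSeq windows of the same 250 bases. The window of Srsf10 lies inside the GENCODE gene, from chr4:135855821 where the gene starts at 135855747. Its 3 GC boxes, 1 CCAAT box and 1 TGACG are counted here but are not upstream of that start. The windows of Srsf3, Srsf4, Srsf7 and Srsf11 reach partly into their genes. The core of ETS sites, CCGGAA, was found for 6 members against 12.0%, and TGACG, part of the cyclic AMP response element, for 6 against 17.7%. The CCAAT box was found for 3 members against 33.8%. The TATA box TATAAA was found for 2 against 12.4%, and the E-box CACGTG for 0 against 6.02%. Srsf9 held 3 GC boxes, Srsf6 held 2 with 1 TGACG, and Srsf3 held 2 TGACG matches and 1 CCAAT box in the sequence shown. The windows of the members were rich in G and C, from 56.8% in Srsf5 to 77.2% in Srsf4, where the median of all windows was 52.4%. A match describes the letters only and is no evidence of binding.

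Levels were compared as CPM summed over cells. A 3' library counts a molecule once whatever its length, so these levels were not divided by length. Srsf3, the smallest SR protein and a shuttling factor with a part in mRNA export, had the highest level in both libraries, at 880.3 CPM in control (871 to 889) against 735 CPM in sonKD (726 to 745). Srsf7, its closest relative in the family, followed at 493 CPM in control against 439 CPM in sonKD. Srsf2, which stays in the nucleus and was first known as SC35, was next at 399 CPM and 360.0 CPM. These 3 genes together made up 60.7% of the family's UMIs in control and 59.9% in sonKD. Srsf11, a larger and more distant SR-related protein, was at 293 CPM in control against 269.9 CPM in sonKD.

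The middle of the order differed between the libraries. In control, Srsf6 was at 211 CPM (206 to 215), Srsf5 at 203 CPM (199 to 208) and Srsf10 at 202 CPM (197 to 206), and the intervals of neighbours overlapped. In sonKD, Srsf10 came first of the 3 at 209 CPM (204 to 214), Srsf5 was at 185 CPM (180 to 189) and Srsf6 came last at 158 CPM (153 to 162), with no overlap. The lowest levels were those of Srsf1, the founding member once called SF2/ASF, at 99.3 CPM in control against 83.8 CPM in sonKD. Srsf9, a close relative of Srsf1, was at 76.6 and 63.6 CPM. Srsf4 was lowest at 64.2 and 57.7 CPM, 13.7-fold under Srsf3 in control and 12.7-fold under it in sonKD. Among the 9 neighbouring pairs in the order, 2 overlapped in control, both within the trio of Srsf6, Srsf5 and Srsf10, and 0 in sonKD.

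The comparison of sonKD with control asks how SR genes stood a day after Son was targeted. Of the 10 members, 9 were lower in sonKD and 1, Srsf10, was higher. The family as a whole stood at 87.7% of control (86.9 to 88.5), from 2921 CPM to 2561 CPM. The median log2 ratio of the members was -0.16, and that of all 8063 genes that averaged 10 CPM or more was -0.12. Most genes were also below 0, at 6039 of 8063. The members as a group thus lay a little under the middle of all genes, whose 5th and 95th percentiles were -0.40 and 0.25.

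Srsf6, a regulator of exon choice, stood furthest from 0 at 74.8% of its control level (72.3 to 77.5), a log2 ratio of -0.42. It lay at percentile 4.35 of all genes. Srsf9 was at 82.9% (78.4 to 87.7) and Srsf3 at 83.5% (82.2 to 84.9). Srsf1 was at 84.4% (80.3 to 88.6). The next 5 members, Srsf7, Srsf4, Srsf2, Srsf5 and Srsf11, lay between 89.0% and 92.0% of control, or log2 ratios of -0.17 to -0.12, close to the median of all genes. Srsf10, an SR-like protein that turns into a general splicing repressor when it loses its phosphates in heat shock, was at 104% of control (100.4 to 107.1), with a log2 ratio of 0.05 (0.01 to 0.10) at percentile 82.1.

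At a fold of 1.2 or more, 2 of the 10 members were lower in sonKD, Srsf6 and Srsf9, while 17.6% of all 8063 genes were. None of the 10 was higher by that fold, against 4.65% of all genes. The share of members past the fold was therefore near that of all genes. The limit ran close to Srsf9, just inside at -0.27, and to Srsf3, just outside at -0.26. With TMM factors Srsf6 alone was past it, and the members' median moved to -0.07 with that of all genes at -0.03. Srsf10 remained the only member above 0 in each of the 6 alternatives of scaling and cells, and Srsf6 the lowest.

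**Figure D1:**
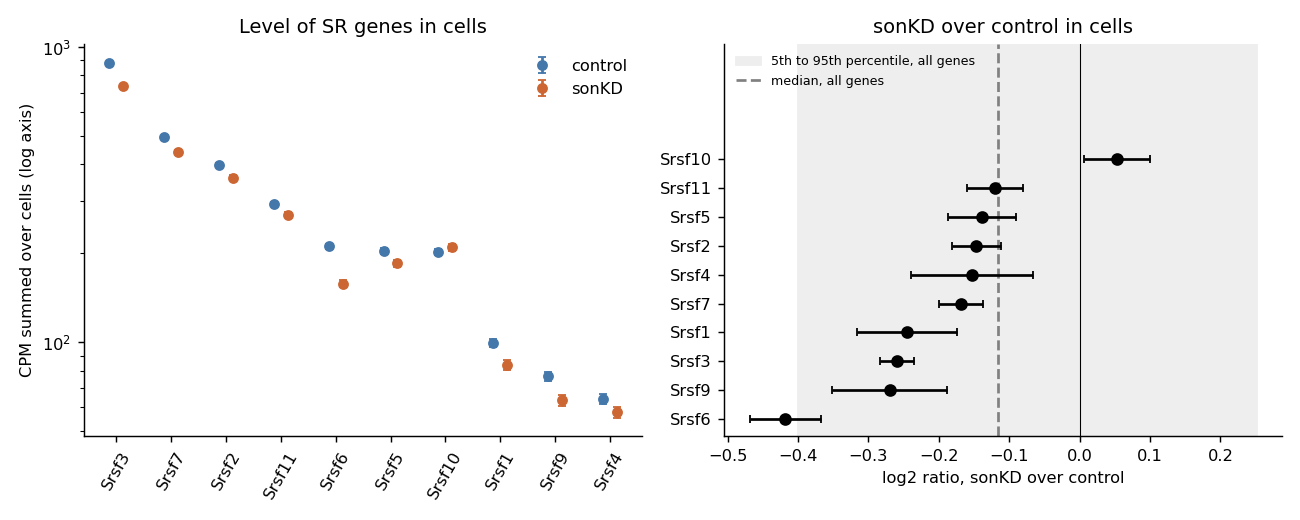
Left, CPM of each gene summed over the cells of control (blue) and sonKD (orange) on a log axis, with 95% Poisson intervals, in the order of the control level. Right, log2 ratio of sonKD over control with its 95% counting interval; grey shading spans the 5th to 95th percentile of 8063 genes (-0.40 to 0.25) and the dashed line their median (-0.12). Srsf6 lies lowest at -0.42 and Srsf10 highest at 0.05.

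Genes that work with SR proteins were described in the same way, from lists taken whole. Of 24 other RS-domain splicing proteins at 10 CPM, 17 were lower and 7 higher in sonKD, with a median log2 ratio of -0.08. Apart from Son, 3 were lower by 1.2-fold or more, namely Sfswap at -0.31, Rsrc1 at -0.30 and Thrap3 at -0.28. Srsf12, a tissue-restricted relative of Srsf10, was under 10 CPM. Among 8 SR protein kinases the median was -0.13, and Clk2 at -0.35 and Clk3 at -0.26 were past the fold. The 14 genes of the hnRNP and PTB group, which often oppose SR proteins at exons, had a median of -0.21, with Hnrnpa0 at -0.51, Hnrnpl at -0.32, Hnrnph1 and Hnrnpu at -0.28 past it. Among genes of nonsense-mediated decay, Smg5 at -0.34, Upf1 at -0.32 and Smg1 at -0.31 were past the fold. All 7 genes of SR import and mRNA export were below 0, and Ddx39b, a helicase of spliceosome assembly and export, was furthest at -0.31, followed by Nxt1 at -0.19. No gene of these 5 lists was higher by 1.2-fold.

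Nuclear-RNA-rich barcodes had 700 to under 2500 UMIs and a Malat1 share at or above the 90th percentile of the cells of their library, which was 0.557% in control and 0.474% in sonKD. Malat1 is a long noncoding RNA kept in nuclear speckles. There were 2536 such barcodes in control and 972 in sonKD, beside 2516 and 1401 other barcodes of that depth. Their median mitochondrial share was 16.4% in control and 18.7% in sonKD, against 3.65% and 4.10% in cells, so they were rich in mitochondrial RNA too. The part of depth in what follows was not tested, and values at a low mitochondrial share are given below.

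The members split in these barcodes, and the split was alike in both libraries. Srsf7, Srsf10 and Srsf11 were higher than in cells, and Srsf1, Srsf2, Srsf3, Srsf6 and Srsf9 were lower, with intervals clear of 0 in both libraries. The split was not particular to shallow barcodes. These members lay on the same sides in the 625 control and 1056 sonKD barcodes of cell depth with over 10% mitochondrial UMIs. In those, Srsf11 had log2 ratios to cells of 0.47 in control and 0.62 in sonKD, and Srsf3 had -0.60 and -0.53. Their median Malat1 share was high too, at 1.14% and 0.727%. Srsf7 was at 632 CPM in nuclear-RNA-rich barcodes of control, against 493 CPM in cells, and at 678 CPM against 439 CPM in sonKD. It thereby passed Srsf3 as the most abundant member, which went from 880.3 CPM in control cells to 577 CPM and from 735 CPM in sonKD cells to 447 CPM. Srsf11 was at 403 CPM in control (log2 ratio to cells 0.46, 0.38 to 0.53) against 409 CPM in sonKD (0.60, 0.49 to 0.71). Srsf10 was at 243 CPM in control (0.27, 0.18 to 0.37) against 321 CPM in sonKD (0.62, 0.49 to 0.74).

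On the low side, Srsf1 had a log2 ratio to cells of -0.83 (-1.02 to -0.64) in control and -0.33 (-0.61 to -0.07) in sonKD. Srsf2 stood at -0.54 in both libraries, and Srsf6 at -0.60 in control and -0.58 in sonKD. Srsf3 stood at -0.61 and -0.72. Srsf9 stood at -0.25 in control and -0.40 in sonKD, from 271 and 86 UMIs. Of the 5, the one nearest to 0 was Srsf9 in control and Srsf1 in sonKD. Srsf4 and Srsf5 had intervals that included 0 in both libraries. At a fold of 1.5, 3 members were lower and 0 higher in control, against 13.4% and 17.9% of all genes, and 1 was lower and 3 higher in sonKD, against 15.9% and 25%. The members' median was -0.20 in control and -0.17 in sonKD, and that of all genes 0.10 and 0.15.

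These directions were next read under other scalings. Without Malat1 and mitochondrial genes in the total, all ratios were higher, so that the median of the members came past 0 in both libraries, to 0.02 in control and 0.08 in sonKD. The members at the ends kept their side under the 4 alternatives tried in each library, with Srsf7, Srsf10 and Srsf11 above 0 and Srsf1, Srsf2, Srsf3, Srsf6 and Srsf9 below it. Srsf4 changed sign between alternatives in both libraries. Among the 293 control and 168 sonKD barcodes of the class with no more than 10% mitochondrial UMIs, Srsf7 was at 0.39 and 0.83, Srsf10 at 0.28 and 0.90, and Srsf11 at 0.70 and 0.88. The split was narrowest for Srsf9 in control, at -0.03 without Malat1 and mitochondrial genes in the total. Srsf9 was also at -0.03 in control at no more than 10% mitochondrial UMIs. Srsf1 in sonKD came next, at -0.05 under that limit. There the intervals of Srsf1, Srsf2 and Srsf6 in sonKD and of Srsf9 in control included 0. Srsf9 in sonKD rested on 8 UMIs there. The median of all genes under the limit was 0.22 in control and 0.35 in sonKD, so Srsf10 in control lay near it.

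The other shallow barcodes, with less Malat1, differed from this picture for a few members. Srsf1, Srsf2, Srsf3, Srsf6 and Srsf9 were lower than in cells there too, in both libraries. Srsf11 was as high there, at 458 CPM in control against 405 CPM in sonKD, and Srsf4 was higher than in cells, at 87.7 and 79.3 CPM. Set against them, the nuclear-RNA-rich barcodes held more Srsf7 (log2 ratio 0.40 in control and 0.64 in sonKD) and more Srsf10 (0.40 and 0.77). They also held more Srsf2 (0.16 and 0.32), which was lower than in cells in both classes. They held less Srsf4 (-0.60 and -0.48) and less Srsf3 (-0.19 and -0.21). Over all 8063 genes the median of this comparison was 0.12 in control and 0.21 in sonKD, with 5024 and 5338 genes above 0. Srsf2 thus lay only a little over that median. Of the 3 genes that were high in nuclear-RNA-rich barcodes, Srsf7 and Srsf10 were thus higher than in the other shallow barcodes in both libraries, and Srsf11 was not. Among genes outside the family, Son had a log2 ratio to cells of 0.91 in control and 1.24 in sonKD. The 8 SR protein kinases had medians of 0.60 and 0.54, and the 14 hnRNP and PTB genes medians of -0.41 and -0.44.

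The knockdown contrast was also read within the nuclear-RNA-rich barcodes. Srsf10 was 0.40 higher in sonKD on the log2 scale (0.25 to 0.55), where the median of all genes was -0.06. Srsf9 was at -0.43 (-0.79 to -0.07), Srsf6 at -0.40 (-0.65 to -0.17) and Srsf3 at -0.37 (-0.48 to -0.25). Srsf7 was at 0.10 (0.00 to 0.20). Srsf11, Srsf5, Srsf4, Srsf2 and Srsf1 had intervals that included 0. For the ratio to cells, the intervals of the libraries lay apart for Srsf1, Srsf7 and Srsf10, each higher in sonKD. That difference was not tested, and the share of all genes with intervals apart is not given here.

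Near-empty droplets of 100 to 500 UMIs gave the level of free RNA, the background of every barcode. Srsf3 was more abundant there than in cells, at 1127 CPM in control against 879 CPM in sonKD. Srsf9 was at 76.8 and 63.0 CPM, as in cells. The other 8 members were lower than in cells in both libraries, as were most genes, with 6536 of 8063 below 0 in control and 6749 in sonKD. The members' median log2 ratio to cells was -0.42 in control and -0.64 in sonKD, closer to 0 than that of all genes at -0.92 and -1.03. Lowest relative to cells was Srsf4 at 20.0 and 16.9 CPM, followed by Srsf1 in control at 55.8 CPM and Srsf10 in sonKD at 100.3 CPM. A UMI of Srsf3 in a single barcode can therefore come from free RNA, and no cell type that lacks these genes was at hand as a background.

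**Figure D2:**
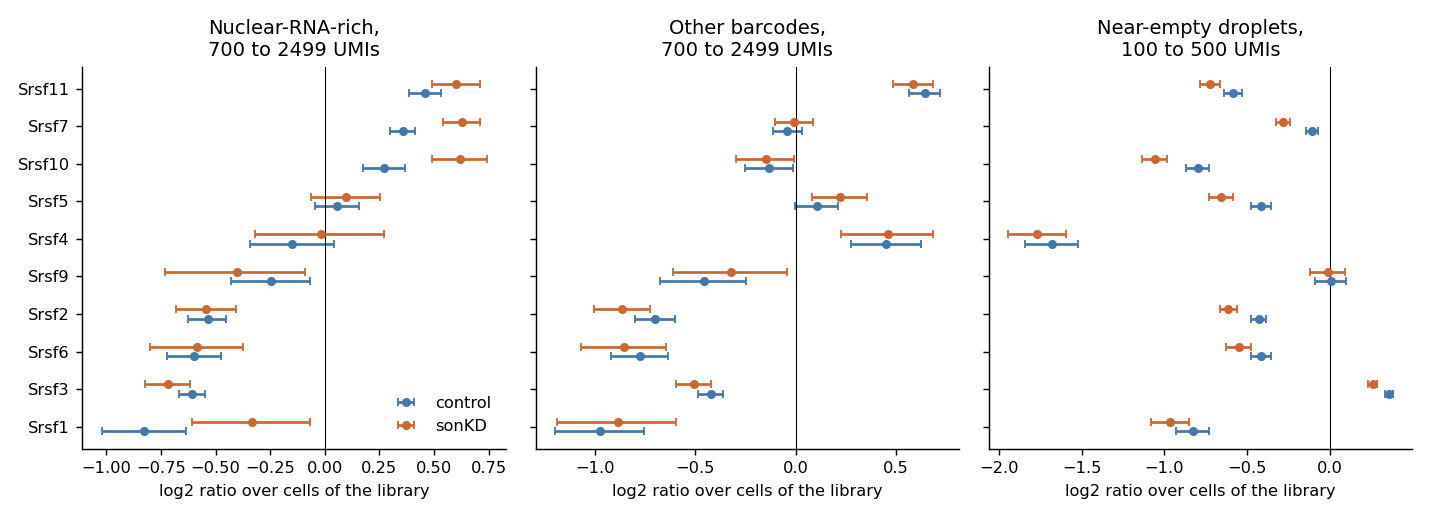
Log2 ratio of each gene's CPM to that in cells of the same library, for nuclear-RNA-rich barcodes, other barcodes of 700 to under 2500 UMIs and near-empty droplets of 100 to 500 UMIs; points are control (blue) and sonKD (orange), bars 95% counting intervals, and the axes differ in range. Srsf7, Srsf10 and Srsf11 lie above 0 in the nuclear-RNA-rich barcodes, while Srsf3 lies above 0 in the droplets only, at 0.36 in control and 0.26 in sonKD.

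Single cells were compared after each was thinned at random to 2500 UMIs, so that no cell was left out. A UMI of Srsf3 was found in 86.3% of control cells (85.3 to 87.3) against 82.2% of sonKD cells (80.7 to 83.6). Srsf6 was found in 38.6% (37.2 to 39.9) and 32.1% (30.4 to 33.9), and Srsf10 in 38.8% (37.5 to 40.2) and 41.6% (39.7 to 43.4). Srsf4 was found least often, in 14.0% of both control cells and sonKD cells. The intervals of the libraries did not overlap for Srsf1, Srsf2, Srsf3, Srsf6, Srsf7 and Srsf9, each lower in sonKD. For Srsf1 the gap was slight, from 19.6% in control to 19.5% in sonKD. The share of all genes with such a gap is not given here, and most genes had a lower level in sonKD (6039 of 8063). The list is therefore not read as a trait of the family. Without thinning, where sonKD cells were deeper, all 6 of these shares were higher in sonKD, as for Srsf6 at 76.6% of control and 77.0% of sonKD cells and Srsf1 at 51.8% and 56.6%. After thinning, Srsf2 was at 61.1% in control and 57.3% in sonKD, and Srsf7 at 69.7% and 66.1%.

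The family gave a median of 7 UMIs per thinned control cell and 6 per sonKD cell, with 5th and 95th percentiles of 3 and 13 and of 2 and 11. A median of 4 different members was seen per cell in both libraries. No UMI of any member was found in 10 control and 8 sonKD cells. Variation beyond counting error was small, with a coefficient of variation of 18.1% for the sum in control and 18.4% in sonKD. The variance of single members was close to their mean, from 1.01 times it for Srsf4 to 1.19 times for Srsf3 in control, and from 0.97 for Srsf6 and Srsf9 to 1.17 for Srsf3 in sonKD. Over 3972 genes of control the median was 1.04 and the 95th percentile 1.22, and over 3750 genes of sonKD they were 1.04 and 1.24.

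Members varied together only weakly from cell to cell. Over the 45 pairs, Pearson's r had a median of 0.010 in control and 0.007 in sonKD, against 0.0004 and 0.0005 over 6717945 pairs of 3666 genes, whose 95th percentiles were 0.034 and 0.039. The values describe cells that share a library, and sparse counts keep r near 0. In each library 31 of the 45 pairs were above 0, where 50.9% of all pairs were in control and 51.0% in sonKD. The same sign was not always kept, as 22 pairs were above 0 in both libraries, 5 below 0 in both and 18 mixed. The pairs that passed 0.05 in both libraries were 2, and both held Srsf3. Srsf2 with Srsf3 had r of 0.057 in control and 0.084 in sonKD, and Srsf3 with Srsf7 had 0.068 and 0.051. The covariance divided by the product of the means, which counting error does not bias, was 0.044 and 0.074 for the former pair and 0.047 and 0.040 for the latter. By this measure some pairs without Srsf3 were higher in both libraries, such as Srsf1 with Srsf4 (0.064 and 0.170) and Srsf5 with Srsf9 (0.072 and 0.133). Others were below 0 in both, such as Srsf4 with Srsf9 (-0.017 and -0.110). At these sizes no pair is read as a finding.

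**Figure D3:**
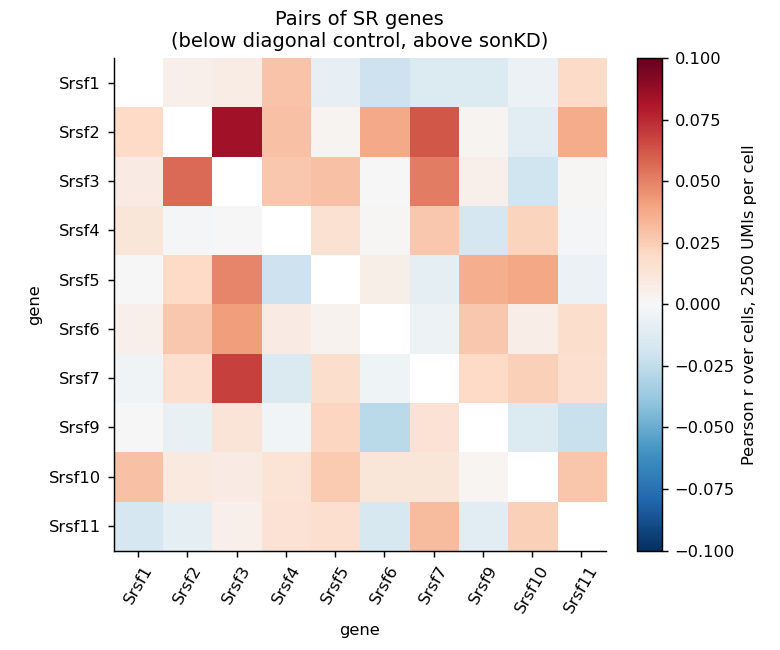
Pearson's r over cells for each pair of members, from counts thinned to 2500 UMIs per cell, with control below the diagonal and sonKD above it; the diagonal is left blank. Srsf3 with Srsf2 (0.057 and 0.084) and with Srsf7 (0.068 and 0.051) pass 0.05 in both libraries, Srsf2 with Srsf7 reaches 0.062 in sonKD and 0.017 in control, and most others lie near 0.

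Genes most like the summed family over cells were ranked by the lower r of the libraries among 3656 other genes. The first 10 were Hspa8, H2afz, Npm1, Ncl, Hmgb2, Hspd1, Dynll1, Nasp, Anp32b and Tubb4b. Hspa8, a constitutive chaperone, had r of 0.13 in control and 0.12 in sonKD, and H2afz, a histone variant, had 0.12 and 0.13. Npm1 and Ncl, abundant nucleolar proteins, had 0.11 and 0.14 and 0.12 and 0.097. Hmgb2, Nasp and Tubb4b belong to the cell cycle lists used below. At the other end stood mt-Co3 at -0.16 in control and -0.14 in sonKD, mt-Co2 and mt-Co1. Of nuclear genes, the lowest were the p53 targets Mdm2 at -0.15 and -0.11 and Phlda3 at -0.11 in both. Son had r of 0.012 and 0.016, inside the 5th to 95th percentile of these genes (-0.041 to 0.043 in control and -0.041 to 0.048 in sonKD).

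Cells were also ranked within each library by the share of UMIs from S phase genes and split into 4 groups of like size, of which the end groups held 1245 cells in control and 683 in sonKD. The family stood at 2629 CPM in the bottom group and 3087 CPM in the top group of control, and at 2288 and 2746 CPM in sonKD. The median log2 ratio of the top to the bottom group was 0.33 over the members in both libraries, against 0.10 in control and 0.11 in sonKD over all genes. For 6 members, Srsf2, Srsf3, Srsf4, Srsf6, Srsf7 and Srsf10, the interval lay above 0 in both libraries, and for none below. The share of all genes with such intervals is not given here, so whether this count is unusual cannot be told. Srsf6 went from 167 to 226 CPM in control and from 129 to 177 CPM in sonKD. Srsf2 went from 337 to 445 CPM and from 293 to 384 CPM. Srsf1 went from 73.3 to 118 CPM in control, and its interval in sonKD (-0.002 to 0.68) included 0. Srsf5 and Srsf11 differed least, at log2 ratios of -0.01 and -0.02 in control and -0.002 and 0.10 in sonKD.

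Ranked by G2/M genes, the members had a median log2 ratio of 0.24 in control and 0.23 in sonKD, against 0.08 and 0.10 over all genes. Srsf1, Srsf2, Srsf3 and Srsf7 had intervals above 0 in both libraries, again without the share of all genes to set beside them. Srsf3 went from 771 to 939 CPM in control and from 661 to 758 CPM in sonKD, and Srsf7 from 429.6 to 514 CPM and from 368 to 459.8 CPM. Srsf5, which had not differed along S phase genes, went from 181 to 249 CPM in control, a log2 ratio of 0.46 (0.30 to 0.62), and its interval in sonKD (-0.03 to 0.41) included 0. Srsf11 was the lowest, at -0.06 in control and -0.22 in sonKD. Depth and mitochondrial share moved with both rankings. The bottom S phase group had a median of 7034 UMIs and 4.16% mitochondrial UMIs in control, the top group 7869 UMIs and 3.45%, and their part in the values was not tested. Ranked by depth itself, 8 members were above 0 in control and 7 in sonKD, with a median over the members of 0.12 and 0.20, against 0.10 and 0.06 over all genes. The interval was clear of 0 in both libraries for Srsf2, which was higher in the top group, and for Srsf11, which was lower.

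Within cells, the Malat1 share ordered the members differently than the shallow barcodes did. From the bottom to the top group of cells, Srsf4 went from 50.1 to 76.2 CPM in control and from 46.9 to 88.0 CPM in sonKD, and Srsf1 went from 71.6 to 108 CPM in control and from 67.4 to 92.1 CPM in sonKD. Srsf10 and Srsf5 were higher in the top group in both libraries as well, with log2 ratios of 0.23 and 0.19 in control and 0.42 and 0.27 in sonKD. Srsf3 was lower in both, at -0.32 (-0.40 to -0.24) and -0.26 (-0.38 to -0.15). Srsf7 was not higher, at -0.15 in control and -0.02 in sonKD, nor was Srsf11, at 0.06 and -0.10. The median of all genes was 0.31 and 0.29, so the members' medians of 0.02 and 0.03 lay under it. By intervals clear of 0 in both libraries, Srsf3 was thus the member below and Srsf10 the member above in both readings of nuclear RNA. By sign alone, Srsf9 was below and Srsf5 above in both readings as well. Against the median of all genes along the Malat1 share, Srsf10 was under it in control (0.23 against 0.31) and over it in sonKD (0.42 against 0.29). Srsf1 and Srsf4 were high within cells and not in the nuclear-RNA-rich barcodes.

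**Figure D4:**
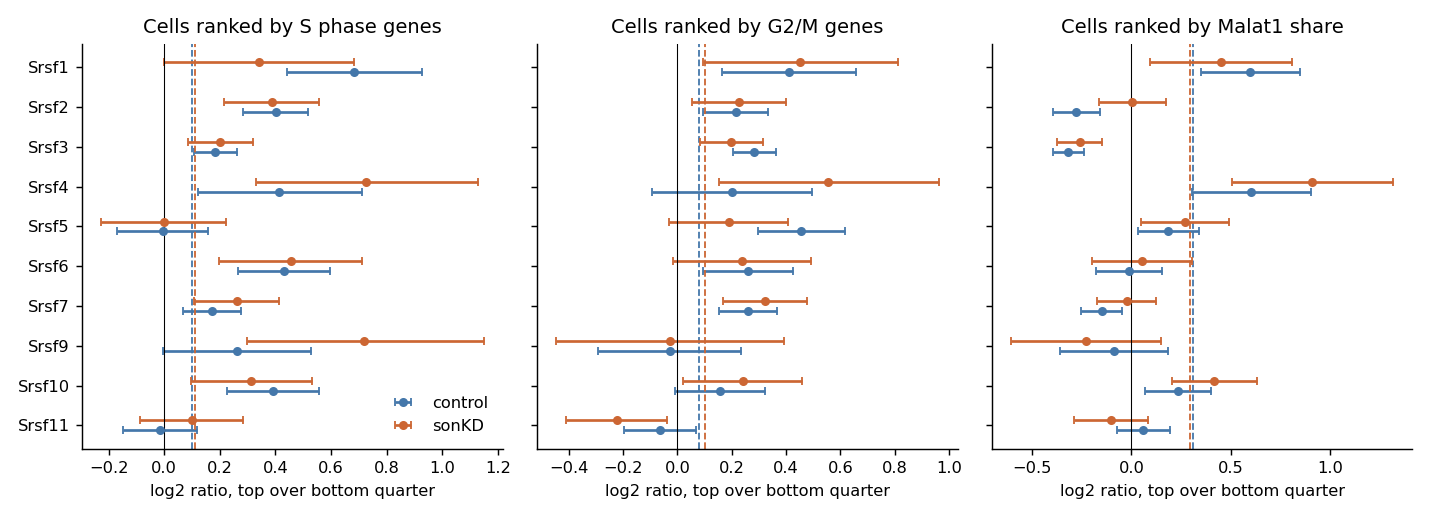
Log2 ratio of each gene's CPM between the top and the bottom of 4 groups of cells, ranked within control (blue) and sonKD (orange) by S phase genes, G2/M genes or the Malat1 share; bars are 95% counting intervals and dashed lines the median of 8063 genes in each library. Most members lie right of 0 along S phase genes, and Srsf3 lies left of 0 along the Malat1 share.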

How the data were processed

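UMI counts per gene and barcode were deposited for both libraries as whole numbers over every barcode. They were made by the authors with Cell Ranger 7.1.0, per the file headers. The build was mm10 per the submitters' processing notes; the annotation and the use of intronic reads are not given in the sources used here. The members and lists were chosen with earlier results of these data known.

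Counts were summed over cells and divided by the library sum (CPM). Log2 ratios used no pseudocount. Intervals were exact Poisson (sums), Clopper-Pearson (shares) and conditional binomial (ratios). With 1 sample a group, no test was run. The named genes were the 10 members, Son, Malat1, list genes past 1.2-fold or the 2 farthest from 0, and the 10 genes most like the family. A result that this rule covers is not reported here. Doublets were kept, since the rule that defined cells named no doublet step. Scrublet in scanpy 1.11.5 marked 0.0603% of control and 0.0366% of sonKD cells. An alternative removed the highest scores at 0.8% per 1000 cells, or 3.98% of control and 2.20% of sonKD cells. TMM factors came from edgeR 4.0.16. The genes of the S phase and G2/M rankings and the motifs were set after the files were seen. The ratio intervals, thinning and covariance were tested on simulated data.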

Additional observations from a re-analysis of the deposited data

How the results depend on the processing

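No paired analysis was possible because each group held 1 sample. The members' median log2 ratio of sonKD over control, -0.16, was -0.070 with TMM factors and -0.087 without mitochondrial and ribosomal protein genes in the total. The members lower by 1.2-fold were 2, and 1 with TMM factors, 1 without those genes and 1 at no more than 5% mitochondrial UMIs, but 3 at 5000 or more UMIs and 3 with the mean of CPM per cell. Of all genes, 7.55% were lower by that fold with TMM factors and 8.78% without those genes, since both divide by another total. The share of all genes was 16.9% at no more than 5% mitochondrial UMIs, 18.6% at 5000 or more UMIs and 16.4% with the mean of CPM per cell. In control, the members' median in nuclear-RNA-rich barcodes turned to 0.056 at no more than 10% mitochondrial UMIs and to 0.024 without Malat1 and mitochondrial genes; 1 member was then higher and 1 lower by 1.5-fold in each of these. Of all 8063 genes, 2277 were higher and 1029 lower in control at no more than 10% mitochondrial UMIs. In sonKD, 1 member was higher and 4 lower over all barcodes of 700 to under 2500 UMIs, against 1316 and 1353 of all genes. Without Malat1 and mitochondrial genes, 0 members were lower in sonKD and the median turned to 0.080. The shares of all genes under that scaling are not given here. Thinned to 5000 UMIs, the median r of member pairs was 0.0062 in control and 0.018 in sonKD, the median normalized covariance in control was 0.0097, and the median share of cells with a UMI was 63.2% and 60.9% by the greater depth. Of 58 values under alternatives for the main results, 36 stayed within the limits set, 19 moved and 3 turned sign. Depth limits Srsf1, Srsf4 and Srsf9 most, with 86 to 271 UMIs each in the nuclear-RNA-rich barcodes.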
